A study of Mus musculus with 16 samples.

Results

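The change from polychromatic erythroblasts (Poly-E) to orthochromatic erythroblasts (Ortho-E) was measured in wild-type mouse bone marrow. The libraries were the 4 titled *Ypel4*+/+ Poly-E and the 4 titled *Ypel4*+/+ Ortho-E, 8 of the 16 in the series, and they were paired by the replicate number in the title. The other 8 come from the same 2 populations of *Ypel4*-/- mice, which carry a gene trap in *Ypel4*, and are used only where they are named. All mice belong to a line on the background C57BL/6N-A<tm1Brd> that carries the allele Ypel4<tm1a(EUCOMM)Wtsi>/WtsiIeg, of which *Ypel4*+/+ mice have no copy. The marrow was taken at steady state, and the labels give neither age nor treatment. Both populations were sorted as Ter119+ cells that excluded propidium iodide and were parted from each other by CD44 and forward scatter, a measure of cell size. *Cd44* itself was therefore part of the sort and is no finding here.

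Terminal erythropoiesis takes a dividing erythroblast through its last divisions to a cell that condenses its nucleus, fills with hemoglobin and expels the nucleus. Poly-E cells still include dividing cells, whereas Ortho-E cells are the last nucleated stage before the reticulocyte. Ortho-E cells are small and hold little RNA. In bulk RNA, fewer cells that express a gene and less of its RNA in each cell cannot be told apart. No spike-in was used, so every level below is relative to the rest of the library and none is an amount per cell.

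The deposited counts of read pairs per gene totalled 3348608 to 10076589 in Poly-E and 2670173 to 6924837 in Ortho-E. The erythroid genes *Hba-a1*, *Hbb-bs*, *Alas2*, *Slc4a1* and *Klf1* were counted in every library, the lowest of these values being 219 CPM, for *Klf1*. CPM are counts after each library total has been scaled to the same round number. Markers of other marrow cells were near 0. The 14 neutrophil markers held 0.000230% to 0.000418% of counts in Poly-E and 0.000112% to 0.00123% in Ortho-E, the 13 macrophage markers at most 0.00117% and the 9 T and NK cell markers at most 0.000208%. The 9 B cell markers held 0.00450% to 0.00700% in Poly-E and 0.00273% to 0.00402% in Ortho-E, and the 8 megakaryocyte and platelet markers at most 0.0117%. With TMM scaling, 4 of 4 neutrophil markers tested, 2 of 10 macrophage markers, 3 of 9 B cell markers and 2 of 5 megakaryocyte and platelet markers were called higher in Ortho-E, beside 27.4% of all genes tested. With library totals, 1 neutrophil and 1 megakaryocyte and platelet marker were called higher, beside 11.3% of all genes, and no macrophage or B cell marker. On that scale 5 B cell markers and 1 megakaryocyte and platelet marker were called lower, beside 60.7% of all genes. Only 4 of 14 neutrophil markers had enough counts to be tested, and the shares of that list overlapped between the populations. The part of these markers in the results was not tested. Replicates 1 and 2 parted from replicates 3 and 4 across genes in both populations. Over 6651 genes, deviations from the group means were correlated between Poly-E and Ortho-E libraries. The correlations were 0.15 to 0.469 within replicates 1 and 2 or within 3 and 4, and -0.3587 to -0.2396 between these sets. The cause was not tested. Genes such as *Cpox* and *Hist1h1c* showed the split, and their values in each library are given with their results.

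The Ortho-E libraries were concentrated in far fewer genes. The genes that together hold 50% of the counts numbered 293, 319, 336 and 352 in the Poly-E libraries and 71, 76, 82 and 87 in the Ortho-E libraries (p = 0.029 in a two-sided exact permutation test, which with 4 against 4 can give no lower value). The 100 highest genes held 32.6% ± 1.38 (SD, n = 4) of counts in Poly-E and 54.1% ± 1.45 (SD, n = 4) in Ortho-E, and the groups did not overlap (exact permutation test, two-sided p = 0.029). The globin genes were not the whole of this, since without them the 100 highest held 29.0% ± 1.45 (SD, n = 4) and 48.4% ± 0.936 (SD, n = 4). At a common depth of 2670173 counts, 12068 ± 167 (SD, n = 4) genes were expected with a count in Poly-E and 10665 ± 205 (SD, n = 4) in Ortho-E (exact permutation test, two-sided p = 0.029). A share of the library needs no scaling between libraries, and these values therefore do not depend on the choice discussed next.

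**Figure D1:**
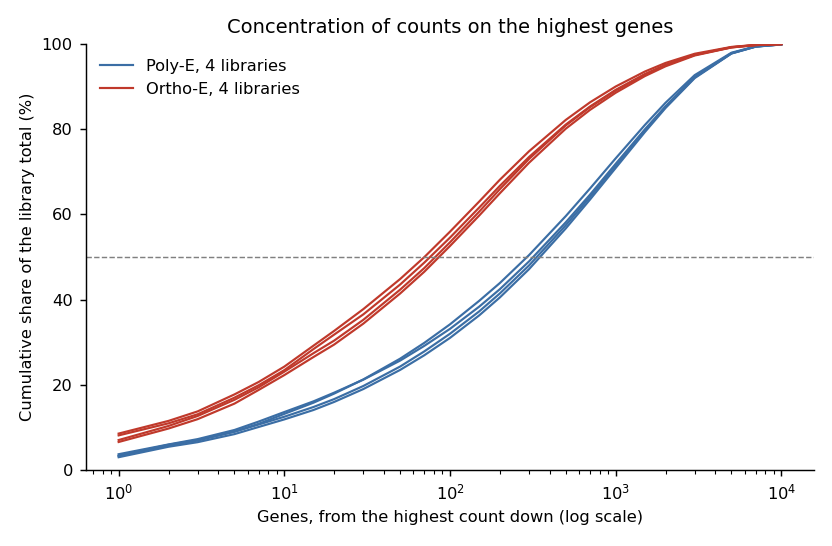
Cumulative share of counts (percent) held by the genes of each library, ranked from the highest, against the rank on a log axis, with 1 line for each of the 4 Poly-E and 4 Ortho-E libraries. The Ortho-E lines lie above the Poly-E lines until all approach 100%, and the dashed line at 50% of counts is reached at 71 to 87 genes in Ortho-E and at 293 to 352 genes in Poly-E.

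The direction of mid-sized changes depended on how the libraries were scaled. Scaling by library totals compares the share of each gene in all counts, whereas TMM, edgeR's trimmed mean of log ratios, assumes that most genes keep their level and rescales by them. The TMM factors were 1.49 to 1.61 in Poly-E and 0.611 to 0.666 in Ortho-E, and the log2 ratio of their means, Ortho-E over Poly-E, was -1.28. Log2 fold changes of Ortho-E over Poly-E are shifted up by about that amount with TMM. The median log2 fold change over the 11747 genes tested was -0.19 with TMM and -1.45 with library totals. With TMM, 7147 genes (60.8% of those tested) were called at an adjusted p of 0.05 by the quasi-likelihood test of edgeR, 3223 higher (27.4%) and 3924 lower (33.4%) in Ortho-E. With library totals, 8453 genes (72%) were called, 1324 higher (11.3%) and 7129 lower (60.7%). All 1324 genes called higher with library totals were also called higher with TMM, and all 3924 called lower with TMM were also called lower with library totals. Between these lie 765 genes that were called higher with TMM and lower with library totals. Calls of at least 2-fold numbered 5360 (45.6%) with TMM, 2424 higher and 2936 lower, and 7041 (59.9%) with library totals, 784 higher and 6257 lower. In what follows, "higher" or "lower" without a scaling means called that way under both (11.3% and 33.4% of genes tested), and any other case names the scaling.

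**Figure D2:**
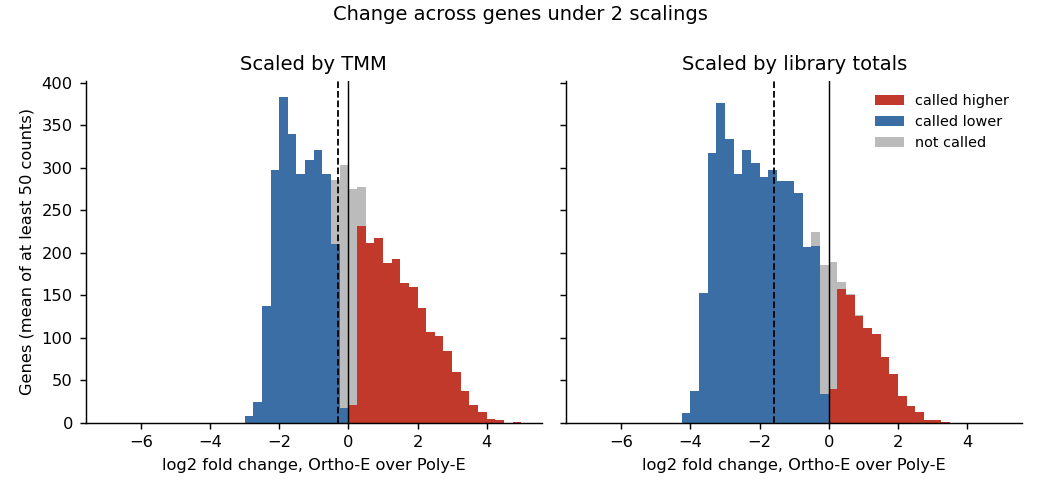
Number of genes by log2 fold change of Ortho-E over Poly-E, with TMM on the left and library totals on the right, for the 5249 genes with a mean of 50 counts or more, stacked by call (red higher, blue lower, grey not called). The solid line marks 0 and the dashed line the median, which lies at -0.30 with TMM and at -1.58 with library totals, where far more of these genes were called lower (4023) than higher (898).

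The 1324 genes higher in Ortho-E went from 34.4% ± 2.85 (SD, n = 4) of all counts in Poly-E to 74.4% ± 1.00 (SD, n = 4) in Ortho-E. The 3924 lower genes went from 37.0% ± 2.46 (SD, n = 4) to 6.61% ± 0.524 (SD, n = 4). These shares describe genes chosen by the same contrast and carry no test. Of the higher genes, 1226 were higher in each of the 4 pairs by library totals, and 200 were higher by at least 4-fold on that scale.

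Gene lists parted by function. All lists were chosen with earlier results of these data known, so counts of their members and tests of their shares are descriptive. By median log2 fold change with TMM, the lowest lists were S phase (-2.02), DNA methylation and demethylation (-1.98, with 5 genes tested), nuclear pore and nuclear transport (-1.71), G2 and M phase (-1.66) and cholesterol synthesis and uptake (-1.49), beside -0.19 for all genes tested. The highest were the ubiquitin (2.84), Ypel (2.38), neutrophil marker (2.38), globin (2.28) and autophagy (1.66) lists, followed by megakaryocyte and platelet markers (1.30), nutrient and nucleoside transporters (1.23), the red cell membrane (1.18) and heme synthesis (1.06). The neutrophil median rests on 4 tested genes, and the whole list had 71 counts in Poly-E and 125 in Ortho-E. With library totals the membrane and heme medians were -0.10 and -0.22, while that of all genes tested was -1.45.

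**Figure D3:**
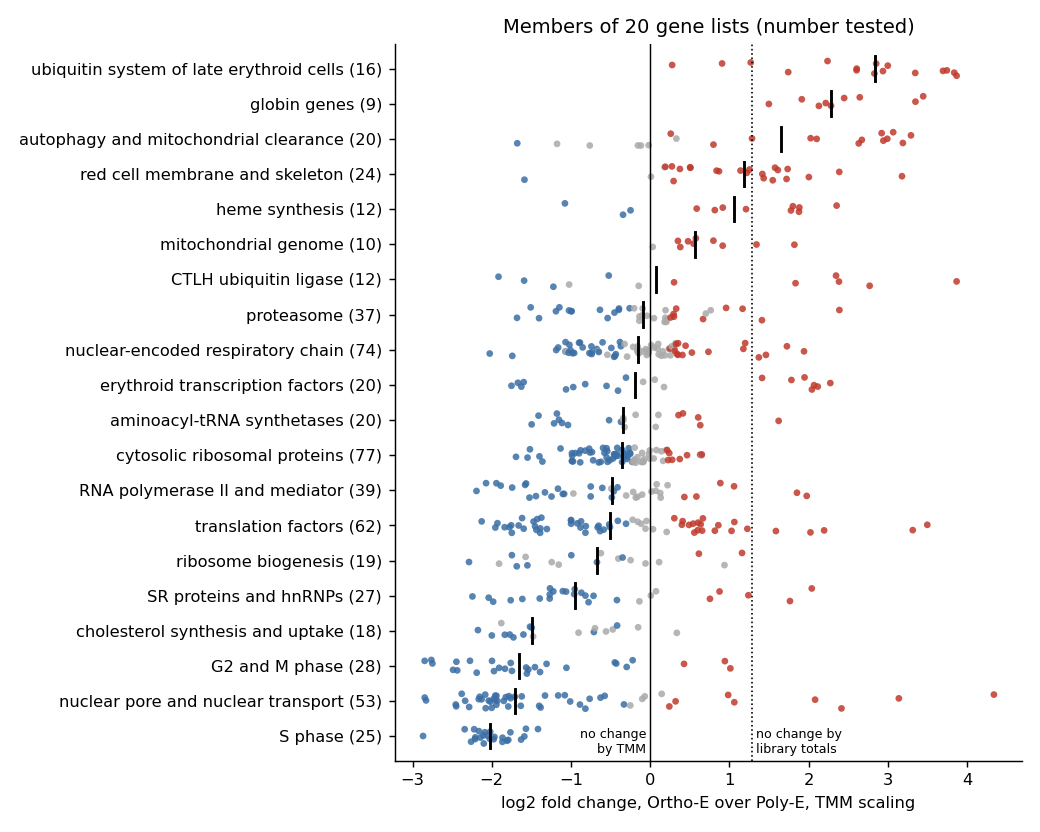
Log2 fold change of Ortho-E over Poly-E with TMM for the members of 20 gene lists, 1 point for each tested gene (red called higher, blue called lower and grey not called with TMM, placed with random vertical scatter), with a short black bar at each list's median, a solid line at 0 and a dotted line where the change is 0 with library totals. The S phase list lies lowest, with all 25 members between -2.87 and -1.42, and the ubiquitin list highest, with a median of 2.84.

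Among the steepest rises was that of *Xpo7*, which encodes exportin 7, a nuclear export receptor (chr14:70654246-70766628, minus strand, GRCm38). It was at 4525, 2393, 1975 and 1511 CPM of the library total in the Poly-E libraries and at 20908, 21272, 19310 and 17856 CPM in the Ortho-E libraries. Every Ortho-E library was above every Poly-E library, and Poly-E replicate 1 was the highest of its group. The log2 fold change was 4.34 (standard error 0.15, edgeR adjusted p = 4.0e-20) with TMM and 3.06 (standard error 0.32, edgeR adjusted p = 0.0038) with library totals, or 8.32-fold on the latter scale. *Xpo7* overlaps *Dok2*, and the counting did not use strand. *Tmcc2*, which encodes a transmembrane and coiled-coil domain protein (chr1:132356315-132391281, minus strand), was at 3196, 1912, 2698 and 2058 CPM in Poly-E and at 16695, 17250, 23448 and 22004 CPM in Ortho-E, with log2 fold changes of 4.31 with TMM and 3.03 with library totals. *Tmcc2* and *Xpo7* each took 1.98% of all Ortho-E counts, after 0.247% and 0.260% in Poly-E. *Bpgm*, the enzyme that makes 2,3-bisphosphoglycerate, which lowers the oxygen affinity of hemoglobin (chr6:34476207-34505613, plus strand), was at 1461, 806, 607 and 543 CPM in Poly-E and at 7493, 6871, 5908 and 5687 CPM in Ortho-E. Its log2 fold changes of 4.31 and 3.03 were the same to 2 decimals as those of *Tmcc2*.

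The other genes of the 10 steepest rises were lower in level. *Tcp11l2* went from 222 ± 82.9 to 1641 ± 87.9 CPM (SD, n = 4), and *Tbcel*, a tubulin folding cofactor homologue, from 347 ± 127 to 2434 ± 167 CPM (SD, n = 4). The receptor genes *Prokr1* and *Calcrl*, the zinc finger gene *Zfp874a*, the protease gene *Lgmn* and the processed pseudogene *Gm14098* completed the set, with log2 fold changes of 3.98 to 4.75 with TMM and 2.70 to 3.48 with library totals. *Gm14098* was at 1.35 to 3.9 CPM in Poly-E and 19.5 to 28.4 CPM in Ortho-E, and a pseudogene can draw reads from its parent gene. *Fam46c*, which encodes a poly(A) polymerase, and *Pabpc1*, the cytoplasmic poly(A)-binding protein, were among the 10 genes that gained most in share. *Fam46c* went from 1924 ± 511 to 9092 ± 224 CPM (SD, n = 4, log2 fold change 3.56 with TMM, 2.28 with library totals). *Pabpc1* went from 3398 ± 524 to 13920 ± 2390 CPM (SD, n = 4, log2 fold changes 3.31 and 2.03).

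**Figure D4:**
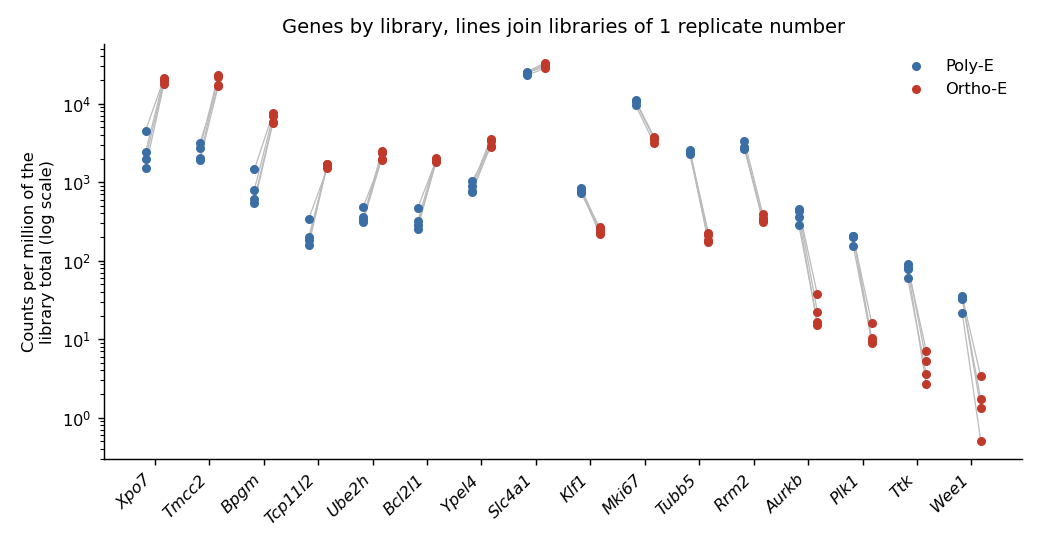
Level of 16 genes in CPM of the library total, on a log axis, with 1 point for each of the 4 Poly-E (blue) and 4 Ortho-E (red) libraries and grey lines that join the libraries of 1 replicate number. The 4 Ortho-E points lie above the 4 Poly-E points for the first 8 genes, from *Xpo7* to *Slc4a1*, and below them for *Klf1*, *Mki67*, *Tubb5*, *Rrm2*, *Aurkb*, *Plk1*, *Ttk* and *Wee1*.

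The promoter windows of *Tmcc2* and *Ube2h* are shown because both genes rose steeply and because each has a window with a GATA motif. The windows were chosen after their motifs were seen. They are the 250 bases before 1 of 3 RefSeq starts of *Tmcc2* (chr1:132367949-132368198, minus strand) and 1 of 2 of *Ube2h* (chr6:30243804-30244053, minus strand), on GRCm38.p6, written 5′ to 3′. Capitals mark AGATAA, the motif of GATA factors such as GATA1, and CCNCNCCC, the CACCC motif of KLF factors such as KLF1, on either strand.
Tmcc2: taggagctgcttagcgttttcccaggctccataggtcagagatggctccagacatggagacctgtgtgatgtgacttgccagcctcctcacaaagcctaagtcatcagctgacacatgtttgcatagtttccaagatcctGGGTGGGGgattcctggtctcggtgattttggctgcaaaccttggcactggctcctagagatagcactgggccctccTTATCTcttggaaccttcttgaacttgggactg
Ube2h: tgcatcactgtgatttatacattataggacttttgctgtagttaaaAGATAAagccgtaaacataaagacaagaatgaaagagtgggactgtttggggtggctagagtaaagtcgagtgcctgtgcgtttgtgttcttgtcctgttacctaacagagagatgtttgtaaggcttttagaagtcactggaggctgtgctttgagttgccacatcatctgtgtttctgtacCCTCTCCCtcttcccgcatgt
AGATAA lay 33 bases before the start in *Tmcc2* and 204 in *Ube2h*. No other window of either gene held it, and both windows shown lie inside the span of the counted gene. Of the windows of the ubiquitin list, 2 of 18 (11.1%) held AGATAA, beside 5.93% of the 9918 windows of genes tested and 9.99% of all 32851 windows in the table. Of the windows of the membrane list, 5 of 18 (27.8%) held it. CCNCNCCC stood in 10 of 18 windows (55.6%) of the ubiquitin list and 11 of 18 (61.1%) of the membrane list. Of windows of genes tested, 62.6% held CCNCNCCC, and of all windows 45.9%, so it did not set these lists apart. Each motif is a description of these letters only.

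The ubiquitin list holds genes of the ubiquitin system of late erythroid cells, chosen with earlier results of these data known. All 16 were higher in Ortho-E with TMM, while with library totals 13 of 16 were higher and 2 lower. Of all genes, 27.4% were higher and 33.4% lower with TMM, and 11.3% were higher and 60.7% lower with library totals. Of 37 proteasome genes tested, 9 were higher and 14 lower with TMM, and 1 was higher and 32 lower with library totals. The ubiquitin system clears proteins and organelles from the maturing red cell. *Ube2h*, the E2 enzyme that works with the CTLH ubiquitin ligase (chr6:30211289-30304539, minus strand), was at 488, 326, 360 and 313 CPM in Poly-E and at 1937, 2001, 2379 and 2509 CPM in Ortho-E. Every Ortho-E library was above every Poly-E library, and the log2 fold change was 3.87 (standard error 0.10) with TMM and 2.59 (standard error 0.08) with library totals. *Trim58*, an E3 ligase known to target the motor dynein, went from 192 ± 41.4 to 1044 ± 33.6 CPM (SD, n = 4, log2 fold changes 3.75 with TMM, 2.46 with library totals). *Trim10*, an E3 ligase of the same family, went from 1463 ± 178 to 4292 ± 680 CPM (SD, n = 4, log2 fold changes 2.83 and 1.55). *Ube2o*, an E2 enzyme that marks ribosomal proteins in reticulocytes, had log2 fold changes of 3.35 and 2.06. The polyubiquitin gene *Ubb* went from 534 ± 173 to 1291 ± 52.6 CPM (SD, n = 4, log2 fold changes 2.61 and 1.32). *Rnf123* (0.91 with TMM, -0.37 with library totals) was called in opposite directions by the scalings. *Fbxo7* (1.27 with TMM) was not called with library totals, at -0.01. *Trim58*, *Ube2o*, *Rnf123* and *Fbxo7* were chosen after their values were seen. The list as a whole took 1.03% ± 0.0969 (SD, n = 4) of Poly-E counts and 2.85% ± 0.150 (SD, n = 4) of Ortho-E counts (exact permutation test, two-sided p = 0.029).

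The genes of the CTLH ligase list did not move together. Beside subunits, the list counts the E2 enzyme gene *Ube2h* and *Ypel5*, a partner of the ligase, and both were higher. These 2 genes are also members of the ubiquitin and Ypel lists. Of the 12 genes tested, 5 were higher and 4 lower under both scalings, beside 11.3% and 33.4% of all genes tested. The other 3 were lower with library totals. *Wdr26*, a scaffold subunit, went from 1396 ± 222 to 3883 ± 91.0 CPM (SD, n = 4, log2 fold change 2.77 with TMM, 1.49 with library totals). *Ranbp10* went from 2074 ± 143 to 4332 ± 218 CPM (SD, n = 4, log2 fold changes 2.35 and 1.06) and *Rmnd5a*, a RING subunit, from 443 ± 14.4 to 652 ± 60.1 CPM (SD, n = 4, log2 fold changes 1.83 and 0.55). *Maea*, the RING partner of *Rmnd5a*, went the other way, from 31.0, 37.0, 47.2 and 42.9 CPM to 4.35, 4.87, 6.21 and 5.92 CPM (-1.59 with TMM, -2.88 with library totals). The substrate receptor *Gid4* went from 57.4 ± 8.08 to 6.26 ± 2.16 CPM (SD, n = 4, log2 fold changes -1.91 and -3.20). *Ranbp9*, the paralog of *Ranbp10*, was lower as well (-1.22 and -2.50), whereas *Rmnd5b*, the paralog of *Rmnd5a*, was lower with library totals (-2.26) and not called with TMM (-1.02). *Rmnd5a*, *Maea*, *Ranbp9* and *Rmnd5b* were chosen after their values were seen.

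Genes that clear mitochondria and that inhibit cell death gave a mixed picture. Of the 20 genes of the autophagy list, 13 were higher and 1 lower with TMM, beside 27.4% and 33.4% of all genes. With library totals 10 were higher and 9 lower, beside 11.3% and 60.7%. *Bnip3l*, the receptor that sends mitochondria to the autophagosome in reticulocytes, was at 1342, 873, 698 and 710 CPM in Poly-E and at 3521, 3585, 2961 and 3072 CPM in Ortho-E (log2 fold change 3.19 with TMM, 1.91 with library totals). *Ulk1*, the kinase that starts autophagy, went from 263 ± 53.8 to 1044 ± 46.6 CPM (SD, n = 4, log2 fold changes 3.29 and 2.01). Its paralog *Ulk2* went from 14.6 ± 2.05 to 1.73 ± 0.730 CPM (SD, n = 4, log2 fold changes -1.68 and -2.96) and was the 1 member called lower with TMM. In the BCL2 family, *Bcl2l1*, the anti-apoptotic BCL-XL, went from 333 ± 94.3 to 1928 ± 102 CPM (SD, n = 4, log2 fold changes 3.85 with TMM, 2.57 with library totals). It was the only 1 of 10 tested members called higher with library totals, and 6 were called lower. *Mcl1*, another anti-apoptotic member, was lower (-0.23 and -1.51), and so was the pro-apoptotic *Bax* (-0.55 and -1.84). With TMM the call of *Mcl1* was lost when any of the 4 replicates was left out, at -0.22 to -0.14, and that of *Bax* without replicate 3, at -0.31.

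Globin transcripts, which encode the chains of hemoglobin, were higher in Ortho-E in all 9 genes tested with TMM, beside 27.4% of all genes. With library totals 7 of 9 were higher, beside 11.3%. *Hbb-bs*, a β-globin gene and the highest gene of all (chr7:103826534-103828096, minus strand), was at 33242, 37315, 34113 and 30276 CPM in Poly-E and at 85747, 81488, 70548 and 65979 CPM in Ortho-E. The groups did not overlap, and the log2 fold change was 2.45 with TMM and 1.17 with library totals. *Hba-a1* went from 9328 ± 462 to 17838 ± 1221 CPM (SD, n = 4, log2 fold changes 2.22 and 0.93) and *Hba-a2* from 4763 ± 315 to 12242 ± 523 CPM (SD, n = 4, log2 fold changes 2.65 and 1.36). *Hba-a1* with *Hba-a2*, and *Hbb-bs* with *Hbb-bt*, are near-identical copies, and reads that map to both are not counted, so the split between copies and their levels are uncertain. *Hbq1a*, a theta globin gene, had the largest rise of the list, from 9.40 ± 1.38 to 41.5 ± 3.40 CPM (SD, n = 4, log2 fold changes 3.45 and 2.17).

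The enzymes of heme synthesis moved unequally along the pathway. Of the 12 genes of the list, 9 were higher and 3 lower with TMM, beside 27.4% and 33.4% of all genes. With library totals 5 were higher and 6 lower, beside 11.3% and 60.7%. The list took 3.07% ± 0.138 (SD, n = 4) of Poly-E counts and 4.05% ± 0.0675 (SD, n = 4) of Ortho-E counts (exact permutation test, two-sided p = 0.029). *Alas2*, the first and rate-limiting enzyme in erythroid cells, was at 6480, 5471, 5024 and 4474 CPM in Poly-E and at 11868, 11874, 10770 and 10228 CPM in Ortho-E (log2 fold change 2.35 with TMM, 1.07 with library totals). *Alad*, which joins pairs of the product of *Alas2* into porphobilinogen, was lower, at 1053, 1088, 845 and 811 CPM in Poly-E and 383, 342, 252 and 262 CPM in Ortho-E (-0.34 and -1.63). *Uros*, which closes the porphyrin ring, was higher with TMM at 0.82 and lower with library totals at -0.47, and *Urod*, the decarboxylase that follows, was higher (1.80 and 0.52). *Cpox*, an oxidase of the next step, was lower (-0.25 and -1.53). It was at 1762 and 1929 CPM in Poly-E replicates 1 and 2 and at 3213 and 3120 CPM in replicates 3 and 4, and in Ortho-E at 611, 716, 1026 and 1091 CPM, so both populations split by replicate number. Its call with TMM was lost without replicate 2 (-0.26) and without replicate 3 (-0.17), and those of *Alad* (-0.33) and *Cpox* (-0.25) without the replicate block. *Ppox*, which oxidises its product, was higher with TMM at 1.21 and not called with library totals at -0.07, with 1377 to 1384 CPM in Poly-E and 1289 to 1342 CPM in Ortho-E. *Fech*, which inserts the iron, was higher (1.88 and 0.60). Per length, as TPM, counts per exon length scaled to the same sum in each library, these enzymes ran in Ortho-E from 282 ± 20.1 TPM (SD, n = 4) for *Uros* and 391 ± 77.3 TPM (SD, n = 4) for *Alad* to 11013 ± 769 TPM (SD, n = 4) for *Alas2*. Between these lay *Cpox* at 640 ± 177 TPM (SD, n = 4), *Ppox* at 688 ± 8.45 TPM (SD, n = 4), *Urod* at 1353 ± 136 TPM (SD, n = 4) and *Fech* at 3901 ± 202 TPM (SD, n = 4). *Cpox* and *Ppox* differed by less than the spread of *Cpox*. *Tmem14c*, which moves a heme precursor into the mitochondrial matrix, fell most in this list (-1.08 with TMM, -2.36 with library totals), while the mitochondrial iron importer *Slc25a37* rose (1.78 and 0.49). *Alad*, *Uros*, *Urod*, *Cpox*, *Ppox* and *Fech* were named as further enzymes of the pathway, after their values were seen.

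**Figure D5:**
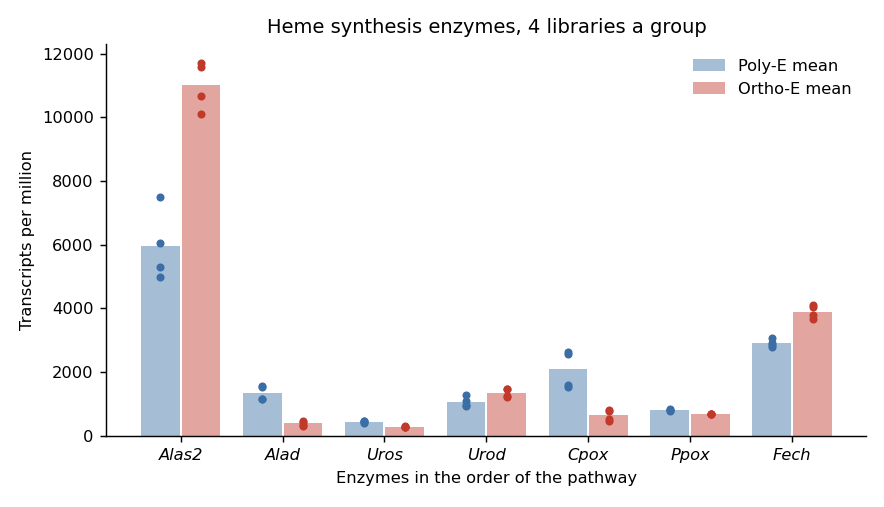
Level of 7 heme synthesis enzymes in TPM, on a linear axis from 0, in pathway order, with bars for the group means and 1 point for each of the 4 Poly-E (blue) and 4 Ortho-E (red) libraries. All 4 Ortho-E points lie below the Poly-E points for *Alad*, *Uros*, *Cpox* and *Ppox* and above them for *Alas2* and *Fech*, while the groups overlap for *Urod*, whose Ortho-E mean is the higher.

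Genes of the red cell membrane and its skeleton divided by scaling. Of 24 tested, 21 were higher with TMM and 1 lower, beside 27.4% and 33.4% of all genes. With library totals 9 were higher and 11 lower, beside 11.3% and 60.7%. The list took 6.86% ± 0.219 (SD, n = 4) of Poly-E counts and 7.73% ± 0.0848 (SD, n = 4) of Ortho-E counts (exact permutation test, two-sided p = 0.029). *Slc4a1*, which encodes the anion exchanger band 3 (chr11:102348824-102366203, minus strand), was at 24670, 22938, 25429 and 24546 CPM in Poly-E and at 29744, 28320, 33079 and 31606 CPM in Ortho-E. The groups did not overlap, and the log2 fold change was 1.61 (standard error 0.09) with TMM and 0.33 (standard error 0.07, edgeR adjusted p = 3.3e-06) with library totals. *Epb4.1*, which encodes protein 4.1 of the skeleton, rose most, from 2677 ± 344 to 9922 ± 715 CPM (SD, n = 4, log2 fold changes 3.18 and 1.90). Without *Slc4a1* and *Epb4.1*, left out after their values were seen, the list took 4.16% ± 0.192 (SD, n = 4) of counts in Poly-E and 3.67% ± 0.240 (SD, n = 4) in Ortho-E, so the gain in share of the list lay in these 2 genes. *Sptb*, which encodes the β chain of spectrin, was called in opposite directions by the scalings, at 0.30 with TMM and -0.99 with library totals. It went from 4166, 4174, 5362 and 5564 CPM to 2159, 2242, 2569 and 2707 CPM. The water channel gene *Aqp1*, at 4739 ± 507 and 2218 ± 323 CPM (SD, n = 4), was lower with library totals (-1.10) and not called with TMM (0.18). *Tpm3*, a tropomyosin gene, was the 1 member lower under both (-1.59 and -2.88).

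Genes of DNA replication fell together. All 25 S phase genes were lower under both scalings, beside 33.4% of all genes with TMM and 60.7% with library totals, and their share of counts went from 1.18%, 1.31%, 1.26% and 1.21% in the Poly-E libraries to 0.119%, 0.144%, 0.134% and 0.142% in the Ortho-E libraries (exact permutation test, two-sided p = 0.029). Their log2 fold changes with TMM ran from -2.87 to -1.42. *Mcm5*, a subunit of the replicative helicase (chr8:75109528-75128439, plus strand), was at 473, 471, 542 and 499 CPM in Poly-E and at 41.0, 44.6, 49.5 and 46.9 CPM in Ortho-E (-2.16 with TMM, -3.45 with library totals, or 10.9-fold lower on the latter scale). *Pcna*, the sliding clamp, went from 1260 ± 188 to 133 ± 20.7 CPM (SD, n = 4, log2 fold changes -1.97 and -3.25). *Rrm2*, a subunit of ribonucleotide reductase, went from 2910 ± 318 to 345 ± 32.5 CPM (SD, n = 4, log2 fold changes -1.79 and -3.07). *Gins2*, part of the helicase complex, fell most in the list, from 19.6 ± 3.26 to 1.17 ± 0.348 CPM (SD, n = 4, log2 fold changes -2.87 and -4.15), and it overlaps *Gse1*. *Ticrr*, which fires replication origins, went from 128 ± 6.65 to 7.57 ± 2.43 CPM (SD, n = 4, log2 fold changes -2.77 and -4.05). *Dnmt1*, which copies DNA methylation after replication, and its partner *Uhrf1* were lower as well (-2.37 and -3.66, and -2.11 and -3.40).

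The mitotic genes fell too, but with more spread. Of 28 G2 and M phase genes, 25 were lower and 3 higher with TMM, beside 33.4% and 27.4% of all genes. All 28 were lower with library totals, beside 60.7%. *Cdk1*, the kinase that drives mitosis (chr10:69336635-69352938, minus strand), was at 521, 704, 512 and 555 CPM in Poly-E and at 38.9, 49.1, 28.2 and 56.9 CPM in Ortho-E (-2.45 with TMM, -3.73 with library totals). *Ttk*, a kinase of the spindle checkpoint, went from 78.1 ± 13.4 to 4.64 ± 1.95 CPM (SD, n = 4, log2 fold changes -2.85 and -4.14). *Aurkb* and *Plk1*, kinases of chromosome segregation, had log2 fold changes of -2.76 and -2.75 with TMM and -4.04 and -4.03 with library totals. *Wee1*, which holds CDK1 inactive, fell most of all genes with a mean of 50 counts, from 21.9, 35.2, 33.1 and 32.8 CPM to 0.512, 3.37, 1.33 and 1.73 CPM (-2.96 with TMM, -4.24 with library totals, or 18.9-fold lower on the latter scale). *Mki67*, the gene of the proliferation marker Ki-67, fell less. It was at 11053, 10677, 9670 and 10762 CPM in Poly-E and at 3645, 3788, 3123 and 3578 CPM in Ortho-E (-0.30 and -1.58), and its loss of share, from 1.05% to 0.353%, was still among the 10 largest. *Ube2c* and *Ccnb2*, which act at the exit from and entry into mitosis, were close to it at -0.22 and -0.45 with TMM. With TMM the call of *Mki67* was lost without replicate 3 (-0.24) and that of *Ube2c* without replicate 2, 3 or 4 (-0.20 to -0.15). The 3 genes higher with TMM and lower with library totals were *Nusap1* (0.43 and -0.86), *Cdc25b* (0.94 and -0.34) and *Cenpe* (1.01 and -0.27), of which the first 2 were chosen after their values were seen.

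The promoter windows of *Mcm5* and *Cdk1* are shown because they hold the motifs that were counted over the windows of the 2 cell cycle lists. Each is the 250 bases before the RefSeq start on GRCm38.p6, chr8:75109259-75109508 on the plus strand for *Mcm5* and chr10:69352913-69353162 on the minus strand for *Cdk1*, and both were chosen after their motifs were seen. Capitals mark CCAAT, bound by NF-Y, TTTNNCGC, the motif of E2F factors, and TTTGAA, the cell cycle homology region (CHR), on either strand.
Mcm5: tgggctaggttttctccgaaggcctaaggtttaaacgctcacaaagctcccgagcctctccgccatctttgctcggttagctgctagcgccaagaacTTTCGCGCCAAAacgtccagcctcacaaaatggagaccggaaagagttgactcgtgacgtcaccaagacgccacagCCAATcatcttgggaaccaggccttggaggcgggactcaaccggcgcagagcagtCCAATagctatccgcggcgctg
Cdk1: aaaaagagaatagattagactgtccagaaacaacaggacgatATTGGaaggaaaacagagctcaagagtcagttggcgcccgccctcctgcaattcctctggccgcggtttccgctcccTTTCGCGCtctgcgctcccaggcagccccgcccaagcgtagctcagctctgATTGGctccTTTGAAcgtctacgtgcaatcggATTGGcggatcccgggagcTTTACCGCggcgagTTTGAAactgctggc
In *Mcm5* the 2 TTTNNCGC matches overlap each other on opposite strands. CCAAT stood in 20 of 23 windows (87%) of G2 and M phase genes and in 13 of 22 (59.1%) of S phase genes, beside 35.8% of 9918 windows of genes tested and 33.8% of all 32851. TTTNNCGC stood in 5 of 22 S phase windows (22.7%) and 1 of 23 G2 and M phase windows (4.35%), beside 7.29% of windows of genes tested and 4.28% of all. TTTGAA stood in 8 of 23 G2 and M phase windows (34.8%) and 3 of 22 S phase windows (13.6%), beside 10.8% of windows of genes tested and 16% of all. A match in these letters is no evidence of binding. Windows were found for 20 of 25 S phase and 23 of 28 G2 and M phase genes.

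Several named genes of the nuclear envelope and chromatin were lower. *Lbr*, the lamin B receptor of the inner nuclear membrane, went from 2262 ± 147 to 246 ± 38.8 CPM (SD, n = 4, log2 fold changes -1.92 with TMM, -3.21 with library totals). *Lmnb1*, which encodes lamin B1, went from 929 ± 146 to 90.5 ± 21.7 CPM (SD, n = 4, log2 fold changes -2.08 and -3.37). *Hmgb1* and *Hmgb2*, which encode chromatin proteins, and *Dek*, another, were at -2.05, -0.95 and -1.58 with TMM and at -3.34, -2.23 and -2.87 with library totals. The β-tubulin gene *Tubb5* went from 2388 ± 104 to 197 ± 24.5 CPM (SD, n = 4, log2 fold changes -2.32 and -3.60). Of 53 genes of the nuclear pore and nuclear transport, 41 were lower and 8 higher with TMM, beside 33.4% and 27.4% of all genes. With library totals 48 were lower and 4 higher, beside 60.7% and 11.3%. The share of counts of the list was 1.00% ± 0.0959 (SD, n = 4) in Poly-E and 2.17% ± 0.155 (SD, n = 4) in Ortho-E, but 0.745% ± 0.0395 (SD, n = 4) and 0.185% ± 0.00739 (SD, n = 4) without *Xpo7*, which was left out after its values were seen. *Ran*, the GTPase of nuclear transport, went from 712 to 941 CPM over the Poly-E libraries to 103 ± 6.45 CPM (SD, n = 4) in Ortho-E, with log2 fold changes of -1.62 and -2.90. The 4 exceptions were *Xpo7*, *Nupl2* (3.14 and 1.86), *Tnpo1* (2.41 and 1.13) and *Nup133* (2.08 and 0.80), of which the last 3 were chosen after their values were seen. *Xpo7* thus rose by a log2 fold change of 4.34 in a list whose median was -1.71 with TMM.

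Most genes of RNA processing and protein synthesis were lower with library totals, as were 60.7% of all genes. Of 77 ribosomal protein genes, 76 were lower with library totals and none higher, beside 60.7% and 11.3% of all genes. With TMM 48 were lower and 8 higher around a median of -0.35, beside 33.4% and 27.4% of all genes. The ribosomal protein genes took 1.72% ± 0.258 (SD, n = 4) of Poly-E counts and 0.568% ± 0.0781 (SD, n = 4) of Ortho-E counts (exact permutation test, two-sided p = 0.029). Ribosomal protein genes have many processed pseudogenes, and reads that map to several places were not counted, so their levels are low estimates. *Rpsa* fell most, from 310 ± 56.4 to 39.1 ± 5.24 CPM (SD, n = 4, log2 fold changes -1.69 and -2.98). The translation factor list also holds regulators of these factors, such as *Eif2ak1* and *Eif4ebp2*. Of its 62 genes tested, 34 were lower and 21 higher with TMM, beside 33.4% and 27.4% of all genes. With library totals 54 were lower and 5 higher, beside 60.7% and 11.3%. The share of this list was 1.52% ± 0.0755 (SD, n = 4) in Poly-E and 2.48% ± 0.232 (SD, n = 4) in Ortho-E, and without *Pabpc1*, left out after its values were seen, 1.18% ± 0.0327 (SD, n = 4) and 1.09% ± 0.0209 (SD, n = 4). Those 5 were *Eif5*, *Pabpc1*, *Eif2ak1*, *Eif1a* and *Eif4ebp2*. *Eif5*, which releases the initiation factor eIF2 at the start codon, went from 1478, 1060, 970 and 899 CPM to 5038, 5153, 4951 and 4939 CPM (3.50 and 2.22). *Eif2ak1*, the heme-regulated kinase HRI that slows translation when heme is short, went from 767 ± 67.1 to 1445 ± 129 CPM (SD, n = 4, log2 fold changes 2.20 and 0.91). *Ppp1r15a*, which reverses the phosphorylation set by HRI, rose (2.53 and 1.25), and *Ppp1r15b*, which does the same constitutively, fell (-0.30 and -1.58). *Hnrnpab* fell most of the SR proteins and hnRNPs (-2.24 and -3.53), and *Srsf5* and *Hnrnpm* were the 2 of 27 that were higher with library totals (0.48 and 0.76). With library totals, the calls of *Eif1a* (0.73) and *Eif4ebp2* (0.30) were lost without the replicate block. *Eif1a* and *Eif4ebp2* were chosen after their values were seen.

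Among the 20 erythroid transcription factors, 7 (35%) were higher and 10 (50%) lower with TMM, beside 27.4% and 33.4% of all genes. With library totals 6 (30%) were higher and 13 (65%) lower, beside 11.3% and 60.7%. *Klf1*, an activator of globin and membrane genes, was at 725, 839, 826 and 748 CPM in Poly-E and at 267, 254, 219 and 234 CPM in Ortho-E (-0.41 with TMM, -1.69 with library totals). *Gata1*, the master regulator of the lineage, was close to it at -0.31 and -1.59, and its call with TMM was lost without replicate 3 (-0.23). *Lmo2*, a bridging protein of the GATA1 complex, rose from 690 ± 47.5 to 1166 ± 20.7 CPM (SD, n = 4, log2 fold changes 2.04 and 0.76). *Foxo3*, which drives antioxidant and autophagy genes in erythroblasts, rose from 864 ± 42.8 to 1541 ± 121 CPM (SD, n = 4, log2 fold changes 2.12 and 0.83). *E2f2*, an E2F factor that takes part in cell cycle exit, was higher with TMM (1.41) and not called with library totals (0.13). *Runx1* had the largest rise (2.27 and 0.99), at 29.9 ± 5.37 and 59 ± 3.07 CPM (SD, n = 4). *Gata1* and *Foxo3* were chosen after their values were seen.

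The regulators of cell cycle exit divided between brakes that rose and brakes that fell. *Cdkn1b*, which encodes the CDK inhibitor p27, was at 673, 481, 475 and 515 CPM in Poly-E and at 1689, 1820, 1828 and 1960 CPM in Ortho-E (3.06 with TMM, 1.78 with library totals). *Ccng2*, an atypical cyclin linked to arrest, rose most (3.22 and 1.94). *Cdkn2d*, which encodes the inhibitor p19, fell from 685 ± 88.8 to 74.0 ± 13.9 CPM (SD, n = 4, log2 fold changes -1.92 and -3.20), and its target *Cdk4* fell from 10.9 ± 0.544 to 0.801 ± 0.223 CPM (SD, n = 4, log2 fold changes -2.49 and -3.76). *Cdk4* had only 2 to 5 counts in each Ortho-E library, and it overlaps *Tspan31*. In the MYC and MXD network, *Mxd1*, a repressor that competes with MYC for MAX, rose from 573 ± 83.8 to 1663 ± 66.0 CPM (SD, n = 4, log2 fold changes 2.83 and 1.55), while *Mxd3*, a member expressed in dividing cells, fell from 343 ± 89.5 to 30.2 ± 8.98 CPM (SD, n = 4, log2 fold changes -2.22 and -3.51).

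Iron, antioxidant and signalling genes had single members at the extremes. *Ncoa4*, the receptor that takes ferritin to autophagy, rose from 333 ± 67.0 to 778 ± 56.5 CPM (SD, n = 4, log2 fold changes 2.52 with TMM, 1.24 with library totals). It was the only 1 of 12 iron genes higher with library totals, where 10 were lower, beside 11.3% and 60.7% of all genes. *Tfrc*, the transferrin receptor, was at 5005, 4828, 4920 and 4798 CPM in Poly-E and at 4658, 5100, 5678 and 5478 CPM in Ortho-E, so the groups overlapped. It was higher with TMM (1.38) and not called with library totals (0.09). The ferritin genes *Fth1* (0.30 with TMM, -0.98 with library totals) and *Ftl1* (1.06 and -0.22) were called in opposite directions, the call of *Fth1* with TMM being lost without the replicate block (0.31). *Steap3*, the endosomal ferrireductase, fell (-2.13 and -3.42). *Cat*, catalase, rose from 464 ± 175 to 2197 ± 282 CPM (SD, n = 4, log2 fold changes 3.59 and 2.30), and *Gsr*, glutathione reductase, fell from 82.3 ± 18.4 to 8.56 ± 1.80 CPM (SD, n = 4, log2 fold changes -2.0 and -3.30). *Epor*, the erythropoietin receptor, was lower with library totals (-1.31) and not called with TMM (-0.03), and its downstream kinase gene *Pim1* rose (2.92 and 1.63). *Gapdh*, often used as a reference gene, was at 35.9, 31.4, 24.7 and 20.7 CPM in Poly-E and at 4.87, 6.37, 4.66 and 3.9 CPM in Ortho-E (-1.21 and -2.50). *Gapdh* has many pseudogenes, so its level here is a low estimate.

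Of the 5 *Ypel* genes, 3 were higher, beside 11.3% of all genes tested. *Ypel4* was at 1037, 756, 901 and 780 CPM in Poly-E and at 2812, 2905, 3566 and 3368 CPM in Ortho-E (3.15 with TMM, 1.87 with library totals). *Ypel3* (3.23 and 1.95) and *Ypel5* (2.38 and 1.10), the latter a partner of the CTLH ligase, rose as well. *Ypel1* and *Ypel2* stayed under 1 CPM in every library.

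For some abundant genes the direction was set by the scaling alone. *Cd24a*, *Sptb*, *mt-Co1* and *Ctse* were among the 5 most abundant genes called higher with TMM and lower with library totals. *Cd24a*, a surface glycoprotein gene of immature erythroid cells, was at 9810, 10555, 8330 and 8230 CPM in Poly-E and at 6901, 7093, 5823 and 5940 CPM in Ortho-E, with log2 fold changes of 0.77 and -0.52. *Ctse*, which encodes the protease cathepsin E, was at 0.73 and -0.55, and *mt-Co1*, a cytochrome oxidase subunit encoded in mitochondria, at 0.91 and -0.37. For such genes these data show a lower share of the library in Ortho-E, and whether the amount changed cannot be told without a measure of RNA per cell. Genes encoded in the mitochondrial genome took 0.652% ± 0.118 (SD, n = 4) of counts in Poly-E and 0.551% ± 0.0496 (SD, n = 4) in Ortho-E, a difference that did not pass the test between groups (exact permutation test, two-sided p = 0.143). The share was lower in Ortho-E in 4 of 4 pairs of replicate number (exact permutation test within pairs, two-sided p = 0.125, the lowest that 4 pairs allow, chosen after seeing the data). Of the 37 mitochondrial genes listed, 10 were tested. Of these, 9 were higher with TMM, beside 27.4% of all genes. With library totals 8 were lower and 1 higher, beside 60.7% and 11.3%. The genes *mt-Co2*, *mt-Co3*, *mt-Atp6*, *mt-Atp8*, *mt-Nd3* and *mt-Nd4l* had no counts in either population. The share therefore covers only a part of the mitochondrial transcripts and is a low estimate.

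The same contrast in the 8 *Ypel4*-/- libraries, which the wild-type comparison does not use, gave 7476 called of 11973 genes with TMM (62.4%). Of the 1324 genes higher in wild type, 1315 were tested there and 1188 (90.3%) were called higher under both scalings, beside 11.6% of all genes tested there. Of the 3924 lower genes, 3921 were tested and 3461 (88.3%) were called lower under both, beside 32.4% of all. *Xpo7* had log2 fold changes of 4.34 in *Ypel4*+/+ and 4.71 in *Ypel4*-/- with TMM, *Tmcc2* 4.31 and 4.73, *Mcm5* -2.16 and -2.19, and *Cdk1* -2.45 and -2.59. The change between populations differed by genotype in 2 of 13318 genes (0.015%) by edgeR's test of the interaction, with 771 genes at an unadjusted p under 0.05. These were *Hist1h1c*, a linker histone gene, and *Mef2d*, a transcription factor gene. The rise of *Hist1h1c* was larger in *Ypel4*-/- by 0.56 on the log2 scale (standard error 0.10) and that of *Mef2d* by 0.65 (standard error 0.12), each at an edgeR adjusted p of 0.0029. DESeq2 called neither of them and 1 other gene, and without the replicate block edgeR called 0 genes. In wild-type cells *Hist1h1c* was at 71.6, 81.8, 156 and 125 CPM in Poly-E and 95.5, 78.6, 189 and 150 CPM in Ortho-E, so replicates 1 and 2 lay below 3 and 4 in both populations. *Mef2d* went from 18.9 ± 3.20 to 37.9 ± 9.83 CPM (SD, n = 4) and overlaps *1700113A16Rik*. Most clustered histone transcripts lack a poly(A) tail, and the libraries were made with a poly(A) kit.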

How the data were processed

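RNA was sequenced from FACS-sorted Poly-E and Ortho-E cells with 4 replicates per group. The authors made the libraries with a poly(A) TruSeq kit, aligned the reads to GRCm38 in the nf-core/rnaseq pipeline, and deposited the featureCounts 1.6.4 counts of read pairs per gene, which are whole numbers without normalization. Per the file headers, exons were summed by gene without use of strand, and reads that map to several places or genes were not counted. The submitters' processing notes list DESeq2, which the study used for the genotypes. The labels do not say that replicates are separate animals, so p-values measure the spread between these samples. Totals of 2670173 to 10076589 counts limit the precision for genes at a few CPM, and SDs and folds cover these libraries only.

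CPM (scaled to a common library total) and TPM (per exon length) were computed here from the deposited counts. The filter kept genes with 10 or more counts summed over the 8 libraries. They were tested by quasi-likelihood in edgeR 4.0.16 (robust) under R 4.3.3, with the replicate number as a block, Benjamini-Hochberg adjustment and a threshold of 0.05, once with TMM and once with library totals. A standard error is the size of the log2 fold change divided by the square root of F. Single shares were compared by exact permutation tests, 4 libraries against 4. The interaction was fitted over all 16 libraries with 1 block per mouse, read from the shared number in the names of the libraries. Alternatives were DESeq2 1.42.0, its size factors, TMM without globin genes, filterByExpr, no filter, no block, all 16 libraries and each replicate left out.

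The replicate numbers were taken to pair the libraries. Over 6651 genes, deviations from the group means of same-numbered *Ypel4*+/+ libraries correlated at 0.3693, 0.295, 0.4094 and 0.469, each best with its own number, although replicates 1 and 2 also went together against 3 and 4. In *Ypel4*-/- mice the correlations were 0.0613 to 0.3657, so the pairing is less clear there. Poly-E replicate 2 correlated better with Ortho-E replicate 1 (0.199) than with its own number (0.0613). Ortho-E replicate 2 correlated best with Poly-E replicate 4 (0.06392). The block of the interaction fit rests on this pairing.

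Tested on simulated data for this comparison, with 200 changed genes among 11430, edgeR recovered 64% with 4.478% false calls. It recovered 97.56% of 2-fold and 100% of 4-fold changes where the mean reached 50 counts. The simulation changed a far smaller part of the genes than the 60.8% called here with TMM, as many up as down. It held no shift like that of the TMM factors and no split between replicates. Its rate of false calls therefore does not measure that of the calls above.

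The comparison and the gene lists were chosen with earlier results of these data known. Named genes are the 10 largest rises and falls among called genes that average 50 counts or more and the same sign in all 4 pairs under both scalings, the 10 that gained and the 10 that lost most share, the called extremes and 3 highest members of each list, the *Ypel* genes, *Gapdh*, *Cd44*, *Tfrc* and *Slc4a1*, the 5 most abundant genes called in opposite directions and the 5 most abundant uncalled with opposite signs, and the genes called in the interaction. Some genes that the rule names are not reported here. Genes outside this rule are marked in the text as picked with their values in view. Promoter windows are from RefSeq on GRCm38.p6, matched by symbol for 7842 tested genes. Gene positions are those of the deposited counts.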

Additional observations from a re-analysis of the deposited data

Results flagged for a closer look

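Of 278 groups of 4 libraries behind the values named here, 16 (5.76%) held a library far from the other 3. Chance would give about 1 in 20 for independent groups, but these groups share libraries, and the cases were not spread evenly over them. In CPM of the library total, Poly-E replicate 1 stood apart in 8 genes. It was high for *Fam46c* (2683, others 1577 to 1737), *Tbcel* (535, others 264 to 307), *Wdr26* (1729, others 1280 to 1289), *Nup133* (115, others 88.0 to 90.2) and *Ppp1r15a* (2401, others 1814 to 1894). It was low for *Cdkn2d* (552, others 722 to 735), *Mef2d* (14.1, others 20.3 to 20.6) and *Plk1* (154, others 198 to 206). The share of the membrane list was high in that library as well, at 7.19% beside 6.72% to 6.79%. In all of these except *Mef2d*, Poly-E replicate 1 lay nearer to the Ortho-E level than the other Poly-E libraries did. The cause was not tested. Poly-E replicate 2 was high for *Ccnb2* (770, others 652 to 663), *Ran* (941, others 712 to 737) and *Ubb* (789, others 408 to 470). Poly-E replicate 3 was low for *Cenpe* (461, others 559 to 576). Ortho-E replicate 1 was high for *Ppp1r15a* (5365, others 4457 to 4588) and low for *Gsr* (5.89, others 9.10 to 9.74) and *Lgmn* (13.1, others 21 to 22.1). For each of these genes except *Cenpe* the 4 Ortho-E libraries lay on 1 side of the 4 Poly-E libraries with the odd library included.

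In 2 genes the change between populations differed by genotype in the test of the interaction, *Hist1h1c* by 0.56 and *Mef2d* by 0.65 on the log2 scale, larger in *Ypel4*-/- in both.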

How the results depend on the processing

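With library totals in place of TMM, 1324 genes were called higher and 7129 lower, in place of 3223 and 3924, so the share of higher among called genes depends on the scaling. Without the replicate block the counts were 1217 and 7086 with library totals and 3097 and 3774 (6871 called) with TMM. Lists with more members higher than lower went from 19 to 5 with library totals, with or without the block, and lists with more lower than higher from 22 to 34 with the block and 35 without it. The interaction had 2 genes with edgeR, 1 with DESeq2 and 0 without the replicate block. Of 122 named genes, 14 had the opposite sign with library totals. Their log2 fold changes were *Aqp1* -1.10, *Cd24a* -0.52, *Cenpe* -0.27, *Ctse* -0.55, *Nusap1* -0.86, *Sptb* -0.99, *Uros* -0.47, *mt-Co1* -0.37, the same with and without the block, and, with and without it, *Cdc25b* -0.34 and -0.33, *Fbxo7* -0.014 and -0.013, *Fth1* -0.98 and -0.97, *Ftl1* -0.22 and -0.21, *Ppox* -0.073 and -0.072, *Rnf123* -0.37 and -0.38. No other alternative turned the sign of a named gene, and without the block 5 of 122 lost their call with TMM. Without 1 replicate in turn, 6349 to 6986 genes were called with TMM, 2808 to 3354 higher and 3482 to 3692 lower. With library totals, an alternative chosen after seeing the data, 7627 to 8296 were called, 1141 to 1365 higher and 6486 to 6931 lower. DESeq2's size factors and TMM without globin genes gave 7146 calls each, DESeq2 6294, no filter 6850, filterByExpr 6102 of 7402 tested and all 16 libraries 7674 of 13318. Depth limits genes at a few CPM, such as *Ypel1*, *Ypel2* and *Bcl11a*. Scaling cannot be settled without a measure of RNA per cell, and the cause of the differences between settings was not tested.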
